A study of Mus musculus with 24 samples.

Results

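The 40 mouse genes described here carry the hypoxia response and glycolysis. They were taken as a list of gene symbols by function, with no threshold on a measured value, though earlier results of these data were known when the list was made. All 40 were found among the 21887 protein-coding RefSeq genes of chromosomes 1 to 19, X and Y on GRCm38.p6, the assembly of mm10. The list holds 3 subunits of the hypoxia-inducible factors (HIF), 5 oxygen sensing regulators, 10 hypoxia targets, 4 transporters and 18 glycolytic enzymes. For each gene, peak summits were counted within 1000 bp of either end of the gene (a peak at an end) and in the gene with 10000 bp on each side (a peak in the body).

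The peaks come from CUT&RUN, in which a nuclease tethered to an antibody releases the DNA around its target. Sox9 libraries and libraries of H3K4me3, a histone mark of active promoters and the positive control of the assay, were made from mouse kidney 10 days after bilateral ischaemia-reperfusion injury (4 libraries of each antibody) and 48 h after it (4 of each). The cells were tdTomato-positive cells sorted from cortex and outer medulla of male Sox9IRES-CreERT2/+:R26RtdT/+ mice, 9 to 12 weeks old, that received tamoxifen when the injury was made. Cre came from the Sox9 locus, so the sort holds cells in which that locus was active around the injury, together with their progeny. Genotype, injury and tamoxifen were common to all groups, and no uninjured group was analysed here. A cell pellet was lightly fixed and split, so the Sox9 and H3K4me3 libraries of a time and replicate number share a pellet. Titles gave the time of each library, since day 10 is written as the cell type of every one of them. The 4 replicates of a group were labelled as biological.

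When oxygen is plentiful, prolyl hydroxylases (Egln1, Egln2, Egln3) mark the alpha subunits Hif1a and Epas1 for capture by Vhl and for destruction, and the asparaginyl hydroxylase Hif1an blunts what remains of their activity. When oxygen falls, the alpha subunits pair with Arnt and bind DNA at short sites with the core ACGTG or GCGTG, near genes for blood vessel growth, glucose uptake and glycolysis. Tubules of the outer kidney rely mostly on oxidative metabolism, and ischaemia-reperfusion is known to engage both HIF and glycolytic genes there. Sox9, a transcription factor of the SOX family that reads the core ACAAT, is known as a gene that injured tubule cells turn on.

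The deposited lists held between 7706 and 88496 peaks on the chromosomes used. Lists averaged 39320 ± 32699 peaks for Sox9 at 10 days and 16760 ± 7700 for Sox9 at 48 h, and 56545 ± 29316 for H3K4me3 at 10 days and 31455 ± 4902 for H3K4me3 at 48 h (SD, n = 4 each). Sequencing depth is unknown, so precision rests on the replicates. Within a list, peak height came in whole multiples of a step, and the share of peaks that were 1 step high ran from 92.5% to 97.8% by list. The size of the step differed between lists, from 60.06 in H3K4me3 48 h replicate 1 to 507.9 in Sox9 10-day replicate 3. Steps therefore rank peaks within a list and do not compare heights between lists. The H3K4me3 library of 10-day replicate 1 stood apart, with 7.5% of its peaks at 2 or more steps, against 2.88% to 4.87% in the other 7 H3K4me3 libraries. It and the Sox9 library of the same pellet were also the longest lists of their antibodies, so shares are given with and without them. At gene ends, marker genes of kidney cell types did not stand out in H3K4me3. A peak was found in 5.36% of gene and library pairs for 7 markers of injured tubule and in 14.3% for 7 of proximal tubule. Over all genes the share at ends was 17.3%. For markers of endothelium, immune cells, stroma and podocytes that share lay between 4.17% and 16.7%. In the body the H3K4me3 share was 58.9% for injured tubule, 78.6% for proximal tubule, 78.1% for loop of Henle and duct, and 75% for endothelium. It was 62.5% for stroma, 66.7% for immune cells and 70.8% for podocytes, against 59.9% over all genes, without matching on length.

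Promoters of 4 members are printed because they hold the peaks that the results below return to. Hif1a and Pgam1 are 2 of the 4 members with summits of both antibodies in a promoter, Slc16a1 has the only Sox9 peak of 2 or more steps at a member's end, and Ldhb has an H3K4me3 peak of 4 steps at its start. They were chosen after the values were seen. Each is the RefSeq promoter of GRCm38.p6 from 250 bases before to 50 bases after the start site, 5′ to 3′ on the strand of the gene. Capitals mark ACGTG, the form of the HIF core counted here, or ACAAT, the SOX core, on either strand. The other form of the HIF core, GCGTG, was neither marked nor counted. The palindrome CACGTG counts as a match on both strands.
Hif1a, chr12:73907617-73907916, plus strand: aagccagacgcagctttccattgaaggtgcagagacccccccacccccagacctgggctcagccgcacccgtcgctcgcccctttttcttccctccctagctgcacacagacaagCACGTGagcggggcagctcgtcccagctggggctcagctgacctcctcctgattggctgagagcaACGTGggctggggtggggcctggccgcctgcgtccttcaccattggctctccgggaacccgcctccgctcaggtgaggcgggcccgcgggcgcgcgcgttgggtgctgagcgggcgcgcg
Pgam1, chr19:41911621-41911920, plus strand: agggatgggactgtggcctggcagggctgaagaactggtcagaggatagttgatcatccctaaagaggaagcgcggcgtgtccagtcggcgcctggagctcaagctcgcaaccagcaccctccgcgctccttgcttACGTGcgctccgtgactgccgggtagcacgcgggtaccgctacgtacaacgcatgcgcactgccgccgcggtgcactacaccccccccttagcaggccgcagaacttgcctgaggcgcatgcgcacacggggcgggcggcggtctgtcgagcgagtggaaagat
Slc16a1, chr3:104638414-104638713, plus strand: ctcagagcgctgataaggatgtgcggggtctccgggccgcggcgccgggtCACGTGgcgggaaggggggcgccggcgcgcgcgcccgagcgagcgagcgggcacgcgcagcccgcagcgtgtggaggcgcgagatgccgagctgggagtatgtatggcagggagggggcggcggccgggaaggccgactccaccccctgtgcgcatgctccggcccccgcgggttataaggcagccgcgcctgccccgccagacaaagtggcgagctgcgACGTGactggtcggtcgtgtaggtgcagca
Ldhb, chr6:142507908-142508207, minus strand: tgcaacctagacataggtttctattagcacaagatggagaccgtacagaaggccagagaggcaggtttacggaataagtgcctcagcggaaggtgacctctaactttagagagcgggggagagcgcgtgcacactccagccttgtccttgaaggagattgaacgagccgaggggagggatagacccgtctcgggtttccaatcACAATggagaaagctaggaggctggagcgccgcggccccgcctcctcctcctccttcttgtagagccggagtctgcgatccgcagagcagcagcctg

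The promoters differ in what they carry. Hif1a's holds 3 matches to ACGTG when the palindrome is counted on both strands, Slc16a1's 3 and Pgam1's 1, and none of these promoters holds ACAAT. Ldhb's holds 1 ACAAT and no ACGTG, though it does hold GCGTG, which was not counted in any promoter. Over the list, ACGTG occurred on either strand in a promoter of 23 of the 37 members that have a promoter in the table (62.2%), against 4065 of 17492 protein-coding genes (23.2%). Promoter by promoter, it was in 26 of 54 of the members' promoters (48.1%) and in 20.9% of 21263. Ldha, for lactate dehydrogenase A, had up to 5 matches in a promoter, the most of any member. ACAAT occurred in a promoter of 9 of 37 members (24.3%) and of 5472 of 17492 genes (31.3%). These are matches of letters in a short window, and no match speaks for or against a factor.

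At the ends of the 40 genes, peaks of both antibodies were present in a minority of libraries and mostly 1 step high. Sox9 marked an end in 46 of 320 gene and library pairs (14.4%, against 9.98% over all genes), and H3K4me3 in 82 of 320 (25.6%, against 17.3%). By library, Sox9 peaks lay at an end of 27.5%, 7.5%, 12.5% and 17.5% of the members in 10-day replicates 1 to 4, and at an end of 5%, 20%, 12.5% and 12.5% of them in 48 h replicates 1 to 4. For H3K4me3 the shares were 62.5%, 7.5%, 30% and 30% in 10-day replicates 1 to 4, and 25%, 10%, 17.5% and 22.5% in 48 h replicates 1 to 4. The times overlapped for both antibodies, and H3K4me3 10-day replicate 1 was far above the other libraries.

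**Figure D1:**
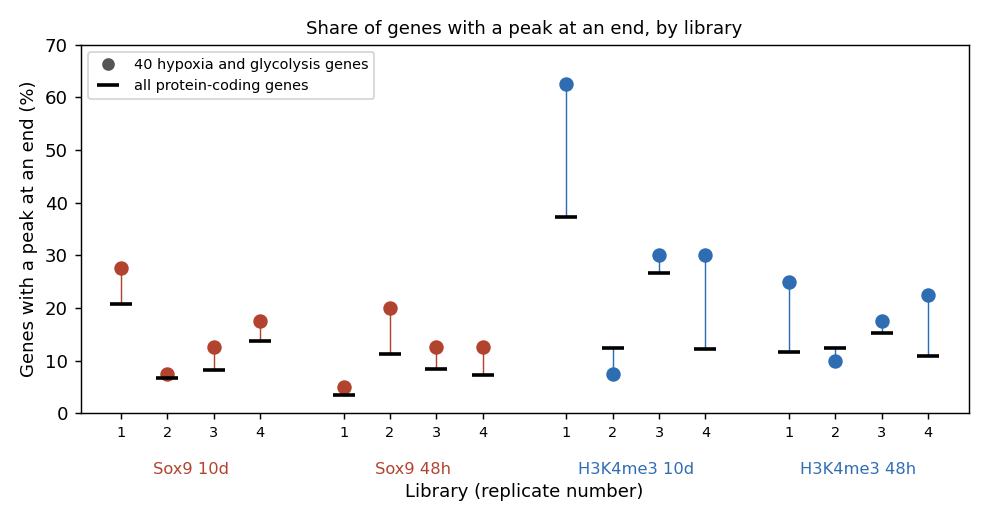
The percent of genes with a peak summit within 1000 bp of an end is plotted for each library, for the 40 hypoxia and glycolysis genes (filled circles) and for all protein-coding genes (black bars). The members lie above all genes in 8 of 8 Sox9 libraries and in 6 of 8 H3K4me3 libraries.

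Mean shares were 16.2% ± 8.54 for Sox9 at 10 days and 12.5% ± 6.12 for Sox9 at 48 h, and 32.5% ± 22.6 for H3K4me3 at 10 days and 18.8% ± 6.61 for H3K4me3 at 48 h (SD, n = 4 each). For each antibody the difference between times was smaller than the SD at 10 days. Over all genes the Sox9 share was 12.3% ± 6.35 at 10 days and 7.64% ± 3.19 at 48 h, and the H3K4me3 share was 22.1% ± 12.1 at 10 days and 12.5% ± 1.91 at 48 h. The members exceeded all genes in 8 of 8 Sox9 libraries, by a ratio of 1.13 to 1.77 (mean 1.45 ± 0.221, SD, n = 8). For H3K4me3 the ratio ran from 0.606 to 2.46 (mean 1.51 ± 0.681, SD, n = 8), and replicate 2 of both times was below all genes. Without 10-day replicate 1 the members averaged 12.5% ± 5.2 for Sox9, against 8.45% of all genes, and 20.4% ± 9.06 for H3K4me3, against 14.5% (SD, n = 7 each). Where 1 end lies beside another gene a peak cannot be given to either: 14 members have a protein-coding neighbour within 2000 bp of an end.

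Tall peaks at the ends, meaning those of 2 or more steps of their own list, were nearly all of H3K4me3. Since the step differs between lists, this does not compare heights between antibodies. Peaks of 2 or more steps at an end made 1 of 320 pairs for Sox9 (0.312%, against 0.618% over all genes) and 18 of 320 for H3K4me3 (5.62%, against 2.94%). Of the 18, 13 lay in H3K4me3 10-day replicate 1, where 32.5% of the members had one, against 13.9% of all genes. A further 4 lay in 10-day replicate 3 and 1 in 10-day replicate 4, and none lay in the H3K4me3 libraries of 48 h. That the tall peaks gather in 1 library is a property of these lists, and its part in the differences between times was not tested.

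**Figure D2:**
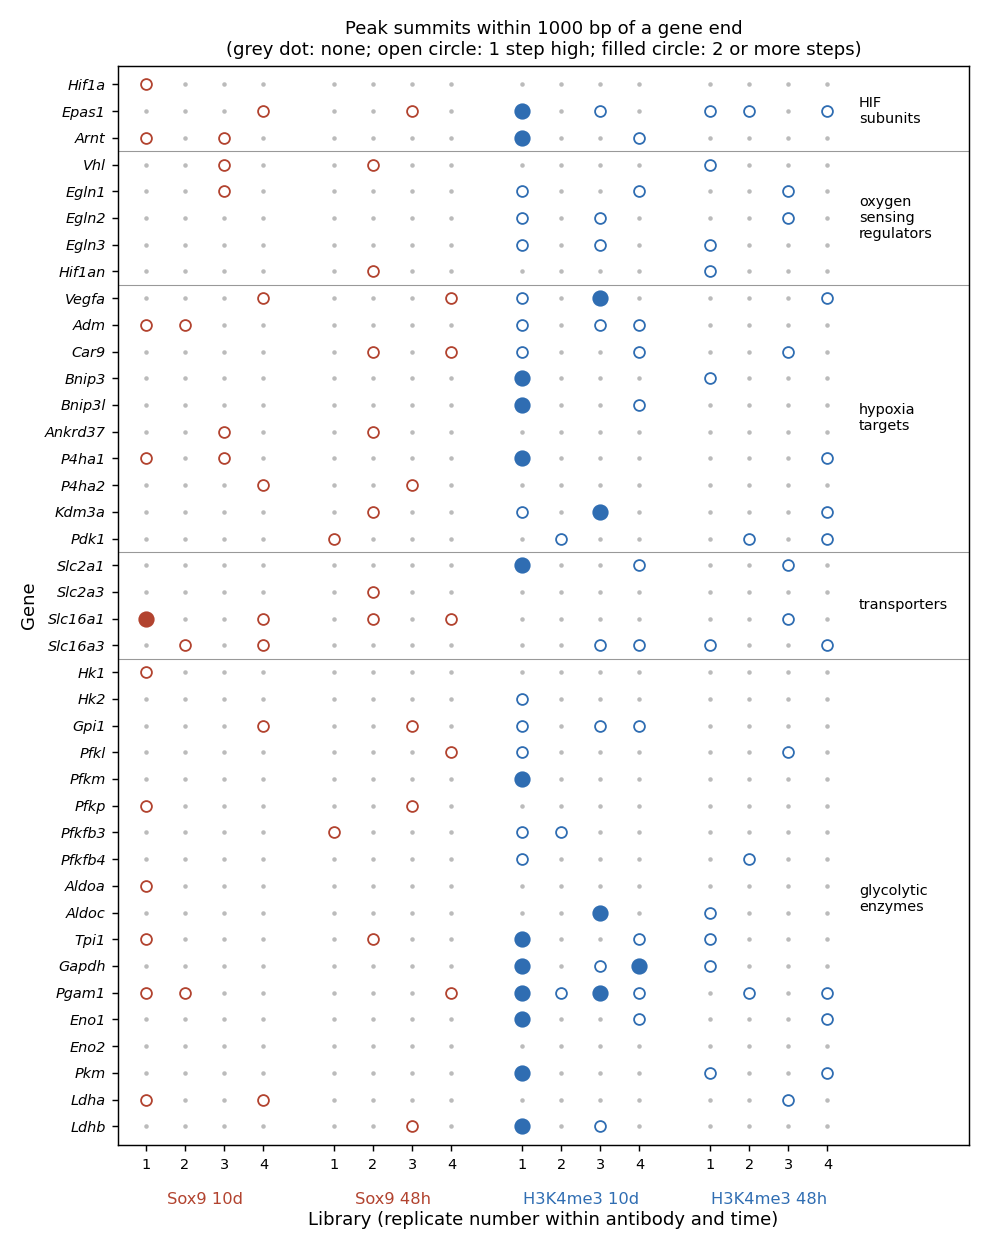
Each row is a gene and each column a library, ordered by antibody, time and replicate, and symbols show no summit (grey dot), a summit of 1 step (open circle) or of 2 or more steps (filled circle) within 1000 bp of a gene end. The column of filled circles is H3K4me3 10-day replicate 1, with 13 genes, and the only filled circle among the Sox9 libraries is Slc16a1.

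The alpha subunits Hif1a and Epas1 and their partner Arnt had Sox9 peaks at an end in 20.8% of pairs and H3K4me3 peaks in 29.2%. Hif1a, whose product is the alpha subunit present in most cells, had 1 Sox9 peak at an end (10-day replicate 1) and no H3K4me3 peak. The RefSeq gene begins at base 73901324 of chromosome 12, upstream of the start site of the promoter printed above, and so the rule of gene ends misses that promoter. In the promoter itself, a Sox9 summit lay 77 bases before the start site in 10-day replicate 3, and H3K4me3 summits lay 11 before it in 10-day replicate 1 (2 steps), 20 before it in replicate 3 and 150 before it in replicate 4. No library of 48 h had a summit in this promoter. The peak rate in the Hif1a body, in summits per 10000 peaks of the list, was 0.117, 0.676, 0.575 and 0.252 for Sox9 at 10 days and 0, 0, 0.626 and 0 at 48 h. For H3K4me3 it was 0.226, 0.323, 0.269 and 0.309 at 10 days and 0.339, 0, 0 and 0 at 48 h. All 8 libraries of 10 days had a summit there and 2 of the 8 libraries of 48 h did, but a single 48 h library was high for each antibody, so the times overlap (exact permutation p = 0.2 for Sox9 and 0.143 for H3K4me3, adjusted p = 1 for both over all genes tested). The peak with the most steps in any member's window, 8 steps of its own list, lay 46408 bp downstream of the Hif1a start site, past the end of the gene, in H3K4me3 10-day replicate 3.

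Epas1, the alpha subunit known from endothelium and the interstitial cells that make erythropoietin, had Sox9 peaks at an end in 10-day replicate 4 and 48 h replicate 3. Its H3K4me3 peaks lay at an end in 5 libraries, the second highest number among the members: 10-day replicates 1 (2 steps) and 3 and 48 h replicates 1, 2 and 4. The body rate was 1.24, 0.97, 0.807 and 0.618 for H3K4me3 at 10 days and 1.69, 0.901, 0.538 and 0.775 at 48 h. The times therefore overlapped (0.909 ± 0.265 at 10 days and 0.977 ± 0.501 at 48 h, SD, n = 4 each). For Arnt, the shared beta subunit, Sox9 summits lay 221 bases after the start site in 10-day replicate 1 and within 10 bases of that position in 10-day replicate 3, a pair of libraries from separate pellets. H3K4me3 peaks lay at its ends in 10-day replicates 1 (2 steps) and 4.

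At an end of the oxygen sensing regulators, Sox9 peaks were found in 10% of pairs and H3K4me3 peaks in 27.5%, all 1 step high. Vhl, the substrate receptor that captures hydroxylated alpha subunits, had Sox9 peaks in 10-day replicate 3 and 48 h replicate 2 and an H3K4me3 peak in 48 h replicate 1. Egln1, the main oxygen sensor among the prolyl hydroxylases, had a Sox9 peak in 10-day replicate 3, 72 bases before its start site, and H3K4me3 peaks in 10-day replicates 1 and 4 and 48 h replicate 3. Egln2 had no Sox9 peak at an end, and 3 H3K4me3 libraries (10-day replicates 1 and 3 and 48 h replicate 3) had a summit 241 to 303 bases after a start site. Egln3, a prolyl hydroxylase that is itself a HIF target, had no Sox9 peak at an end and H3K4me3 peaks in 10-day replicates 1 and 3 and 48 h replicate 1. Hif1an had 1 library of each antibody, Sox9 48 h replicate 2 and H3K4me3 48 h replicate 1.

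At an end of the 10 hypoxia targets, Sox9 peaks were found in 17.5% of pairs and H3K4me3 peaks in 26.2%. Vegfa, for the main growth factor of blood vessels, had Sox9 summits 436 bases after a start site in 10-day replicate 4 and 372 after it in 48 h replicate 4. H3K4me3 summits lay close to these, 334 bases after it in 10-day replicate 1 and 345 after it in 10-day replicate 3 (2 steps), and 974 after it in 48 h replicate 4. Adm, for the vasodilator peptide adrenomedullin, had Sox9 peaks at an end in 10-day replicates 1 and 2 and H3K4me3 peaks in 10-day replicates 1, 3 and 4, and no end peak of either antibody at 48 h. In the wider window around Adm, Sox9 summits were also found in 48 h replicates 1 and 4. Car9, for a carbonic anhydrase of the cell surface, had Sox9 peaks in 48 h replicates 2 and 4 and H3K4me3 peaks in 10-day replicates 1 and 4 and 48 h replicate 3.

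Kdm3a, for a histone demethylase, and Pdk1, for the kinase that holds pyruvate back from the mitochondrion, each had a Sox9 peak in 1 library (48 h replicate 2 for Kdm3a and 48 h replicate 1 for Pdk1) and H3K4me3 peaks in 3. The H3K4me3 libraries were 10-day replicates 1 and 3 (2 steps in replicate 3) and 48 h replicate 4 for Kdm3a, and 10-day replicate 2 and 48 h replicates 2 and 4 for Pdk1. Bnip3 and Bnip3l, for mitophagy receptors, had no Sox9 peak at an end and 2 H3K4me3 libraries each, with 2 steps for Bnip3 and 4 for Bnip3l in 10-day replicate 1. P4ha1 and P4ha2, for collagen prolyl hydroxylases, and Ankrd37 had Sox9 peaks in 2 libraries each. H3K4me3 marked an end of P4ha1 in 2 libraries and of P4ha2 and Ankrd37 in none.

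Among the transporters, Slc16a1 (the lactate and pyruvate carrier MCT1) had an end marked by Sox9 in 4 libraries, the most of any member (4 or more in 1.58% of all genes), and Slc2a1 (the glucose carrier GLUT1) in none. The Sox9 summits of Slc16a1 near its start lay 141 bases before the start site in 10-day replicate 1 (2 steps), 198 after it in 10-day replicate 4 and 613 after it in 48 h replicate 2, while the peak of 48 h replicate 4 lay at the other end. H3K4me3 marked an end of Slc16a1 in 48 h replicate 3 alone. The Sox9 body rate of Slc16a1 was 0.234, 0.676, 0 and 0.504 at 10 days and 0, 0.377, 0 and 1.19 at 48 h, so the times overlapped (0.354 ± 0.298 at 10 days and 0.391 ± 0.56 at 48 h, SD, n = 4 each). Slc16a3 (MCT4, the carrier linked to lactate export) had Sox9 peaks in 10-day replicates 2 and 4 and H3K4me3 peaks in 10-day replicates 3 and 4 and 48 h replicates 1 and 4, most of them at the 3′ end. Slc2a1 had H3K4me3 peaks in 10-day replicates 1 (2 steps, 32 bases before the start site) and 4 and 48 h replicate 3. Slc2a3 had 1 Sox9 library and no H3K4me3 library.

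An end of the 18 glycolytic enzymes was marked by Sox9 in 16 of 144 pairs (11.1%) and by H3K4me3 in 35 of 144 (24.3%). Pgam1, for phosphoglycerate mutase, led the list, with Sox9 peaks at an end in 3 libraries and H3K4me3 peaks in 6. Sox9 summits lay 58 bases before the start site in 10-day replicate 1 and 79 after it in 10-day replicate 2, and in the last part of the gene in 48 h replicate 4. All 6 H3K4me3 summits clustered at the start site: 4 bases after it in 10-day replicate 1 (2 steps), 244 in replicate 2, 86 in replicate 3 (2 steps) and 54 in replicate 4, then 49 before it in 48 h replicate 2 and 233 after it in 48 h replicate 4. Over all genes 6.32% had Sox9 peaks at an end in 3 or more libraries and 0.503% had H3K4me3 peaks in 6 or more.

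Gapdh, for the dehydrogenase often used as an expression standard, had no Sox9 peak at an end, and H3K4me3 peaks in 10-day replicates 1 (2 steps), 3 and 4 (2 steps) and 48 h replicate 1. The tall summit of 10-day replicate 1 lay 91 bases after the start site, and that of 10-day replicate 4 lay 4664 bases after it, at the 3′ end, with another of 1 step 63 bases after the start site. Eno1 (enolase), Pkm (pyruvate kinase) and Tpi1 (triosephosphate isomerase) each had H3K4me3 peaks in 3 libraries, with 2 steps in 10-day replicate 1 (for Tpi1 at the 3′ end). The others were 10-day replicate 4 and 48 h replicate 4 for Eno1, 48 h replicates 1 and 4 for Pkm, and 10-day replicate 4 and 48 h replicate 1 for Tpi1. Gpi1, for glucose phosphate isomerase, had Sox9 peaks in 10-day replicate 4 and 48 h replicate 3 and H3K4me3 peaks in 10-day replicates 1, 3 and 4. Ldha had Sox9 peaks in 10-day replicates 1 and 4 and an H3K4me3 peak in 48 h replicate 3. As with Hif1a, its promoter lies inside the gene bounds, and an H3K4me3 summit of 2 steps 35 bases after that start site in 10-day replicate 1 is not counted at the ends. Ldhb had a summit of 4 steps 15 bases before its start site in H3K4me3 10-day replicate 1. Hk2, for the inducible hexokinase, had a single peak at an end, of H3K4me3 in 10-day replicate 1.

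Most members had few libraries at their ends. For Sox9, 13 members had none (Egln2, Egln3, Bnip3, Bnip3l, Slc2a1, Hk2, Pfkm, Pfkfb4, Aldoc, Gapdh, Eno1, Eno2 and Pkm), 11 had 1, 14 had 2, Pgam1 had 3 and Slc16a1 had 4. Having none was less common among the members (32.5%) than over all genes (48.5%), and having 2 was more common (35%, against 13.7%). Members with 3 or more Sox9 libraries were thus 2 of 40, against 6.32% of all genes. For H3K4me3, 8 members had none (Hif1a, Ankrd37, P4ha2, Slc2a3, Hk1, Pfkp, Aldoa and Eno2), which is 20% of them, against 31.7% of all genes. Those with 3 or more were 17, against 19.5% of all genes. Without 10-day replicate 1 the number with 3 or more was 1 for Sox9 (3.5% of all genes) and 5 for H3K4me3 (10.8% of all genes). Eno2, for the neuronal enolase, was free of peaks at its ends in all 16 libraries. Both antibodies marked an end in the same pellet in 10 of 320 pairs (3.12%), against 2.81% over all genes. Of the members, 7 have a named pseudogene in the table (Vhl, Bnip3l, Aldoa, Gapdh, Pgam1, Ldha and Ldhb), so reads may have been shared with copies elsewhere and their peaks are uncertain to that extent.

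Summits of both antibodies were denser at annotated start sites than farther out. Over the 37 members with start sites, 36 Sox9 summits lay within 1000 bp of one and 32 at 2000 to 5000 bp, a density per kb 3.38 times higher near the start (3.01 times over 17492 genes). For H3K4me3, 82 lay near and 57 farther out, a ratio of 4.32 (3.73 over all genes). A summit within 1000 bp of a start site was found for 11.8% ± 6.91 of the members in Sox9 libraries, against 8.26% ± 3.89 of all genes, and for 24.3% ± 17 in H3K4me3 libraries, against 15.4% ± 9.37 (SD, n = 8 each). Of the members' H3K4me3 peaks of 2 or more steps, 17 were near and 9 far (4617 near and 1007 far over all genes). Without 10-day replicate 1 they were 3 near and 5 far (1678 near and 576 far over all genes). A summit fell inside a promoter of 8 of 37 members for Sox9 (21.6%, against 14.6% of all genes) and of 14 for H3K4me3 (37.8%, against 30.2%), with 4 in common (Hif1a, Pgam1, Kdm3a and Pfkfb3; 10.8%, against 7.3%). Without 10-day replicate 1 these were 5 members for Sox9 (13.5%, against 11.6%) and 7 for H3K4me3 (18.9%, against 19.4%), with 3 in common, and Pgam1 was no longer among them. Without that replicate the Sox9 ratio was 4, against 3.55 for all genes, and the H3K4me3 ratio was 3.69, against 3.32 for all genes.

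**Figure D3:**
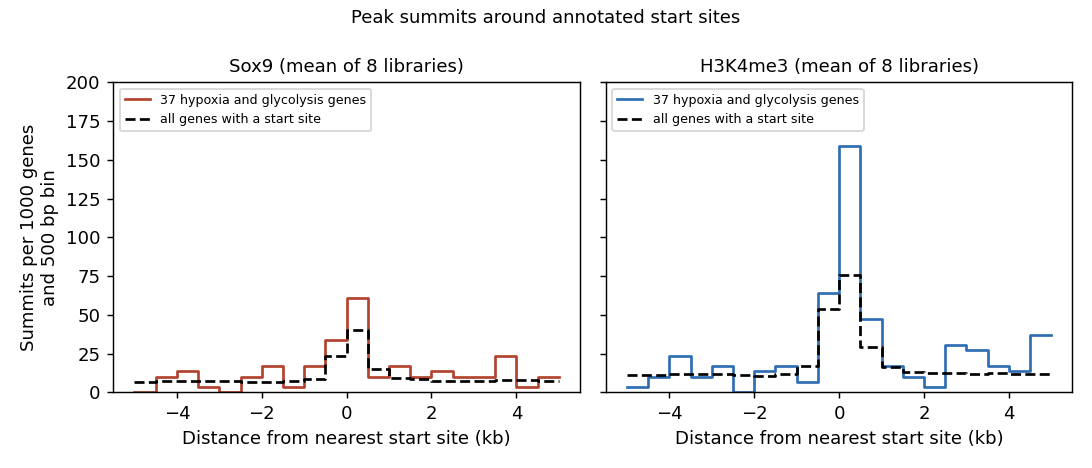
Summits per 1000 genes in bins of 500 bp are plotted against the distance from the nearest start site in kb, as the mean of 8 libraries, with the 37 members as solid and all genes as dashed lines, and Sox9 in the left and H3K4me3 in the right panel. Both antibodies peak in the bin just after the start site, and the members' line is above that of all genes there.

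Some H3K4me3 peaks recurred at a position. At 9 of the 40 members (22.5%, against 13% of all genes) overlapping H3K4me3 peaks of 3 or more libraries lay in the body or its flanks, and for Sox9 at none (3.44% of all genes). Without H3K4me3 10-day replicate 1 the count was 3 of 40 (7.5%, against 6.65% of all genes), namely Pdk1, Pfkfb4 and Pgam1. The regions of Hif1a (3 libraries), Egln2 (3) and Pdk1 (3) lay within the gene bounds, as did one of Pfkfb4 (3), for a regulator of glycolytic flux. Those of Kdm3a (3) and Pgam1 (4) lay across the bound at the start of the gene. Those of Gpi1 (4 libraries, chr7:34196147-34196740, 4587 bp downstream), Aldoa (3, 2596 bp downstream) and Eno2 (3, 3247 bp upstream) lay outside. Eno2 thus had a repeated H3K4me3 peak beside it but none at its ends. Some of these hold Sox9 summits too: 2 libraries at Pgam1 and Pfkfb4 and 1 each at Hif1a, Kdm3a, Pdk1, Gpi1, Aldoa and Eno2. Elsewhere in Pfkfb4, a Sox9 summit of 2 steps in 10-day replicate 4 and an H3K4me3 summit of 2 steps in 10-day replicate 1 lay 1 bp apart, from separate pellets. Windows of members held 289 Sox9 summits in all, 5 of them with 2 or more steps, and 481 H3K4me3 summits, 42 of them with 2 or more steps, of which 27 lay in H3K4me3 10-day replicate 1.

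In the body and its flanks, glycolytic enzymes and hypoxia regulators (HIF subunits and oxygen sensing regulators, 8 genes) did not differ in a set direction. For Sox9, 52.8% ± 25.9 of the enzymes and 71.9% ± 18.8 of the regulators had a peak at 10 days, and 44.4% ± 19.8 of the enzymes and 34.4% ± 21.3 of the regulators at 48 h (SD, n = 4 each). Enzymes minus regulators was -19.1 ± 17.4 percentage points at 10 days, below 0 in 4 of 4 libraries, and 10.1 ± 22.9 at 48 h, above 0 in 2 of 4. For H3K4me3 it was -0.694 ± 7.73 at 10 days and 6.6 ± 22.9 at 48 h. Over 8 libraries it was -4.51 ± 24.4 for Sox9 and 2.95 ± 16.3 for H3K4me3. For peaks at an end it was -2.95 ± 16.9 for Sox9 and -3.82 ± 12.6 for H3K4me3. The SD exceeds the size of the mean in each of these cases, and with 8 regulators 1 gene moves their share by 12.5 points. The 3 HIF subunits account for much of the 10-day share of the regulators: all 12 subunit and library pairs had a Sox9 peak at 10 days and 4 of 12 at 48 h, while H3K4me3 had a peak in 12 of 12 pairs at 10 days, against 8 of 12 pairs at 48 h. Among genes of like length (640 to 938 for each subunit) the Sox9 share was 66.4% ± 23 at 10 days and 46.1% ± 15.9 at 48 h, and the H3K4me3 share was 82.1% ± 13.6 at 10 days and 69.2% ± 4.33 at 48 h (SD, n = 4 each), so it was lower at 48 h there as well. The 10-day lists are longer, and the part of list length in this was not tested here.

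**Figure D4:**
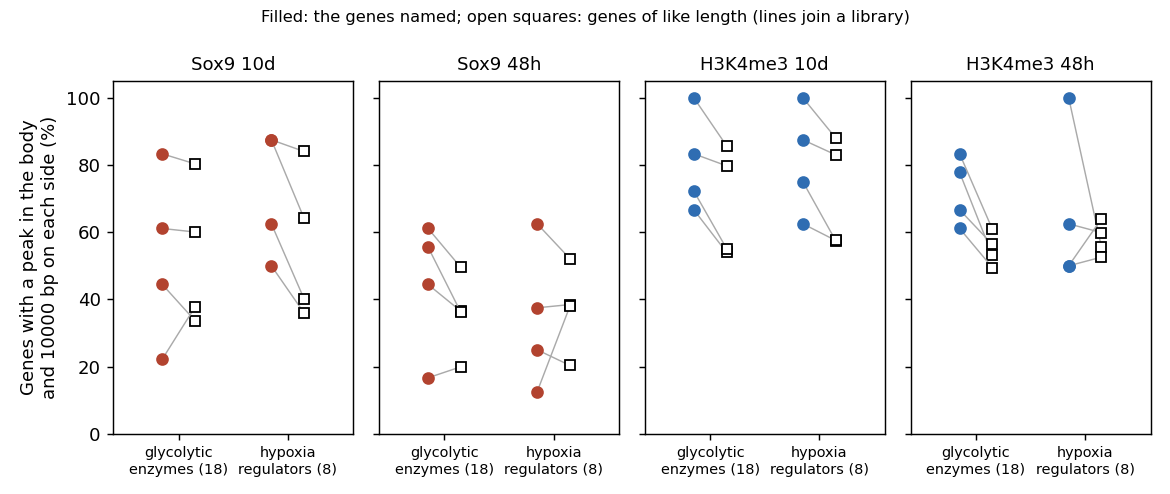
The percent of genes with a peak in the body and 10000 bp on each side is plotted by library for the 18 glycolytic enzymes and the 8 hypoxia regulators (filled circles), each joined to the share of genes of like length (open squares). The enzymes lie above their genes of like length in 8 of 8 H3K4me3 libraries, and the Sox9 circles fall on both sides.

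Length bears on any count in a body, since the enzymes had a median length of 20253 bp, the regulators 32781 bp, the 40 members 22829 bp and all genes 17169 bp. Each member was therefore set beside all other protein-coding genes whose length was within 10% of its own (368 to 1303 genes). The members had a Sox9 peak in the body in 50.3% ± 19.1 of cases and genes of like length in 44.3% ± 19.1, a difference of 6.01 ± 2.93 points that was above 0 in 8 of 8 libraries. For H3K4me3 the share was 68.4% ± 12.5 for the members and 61.9% ± 13.5 for genes of like length, a difference of 6.49 ± 4.27 points, also above 0 in 8 of 8 (SD, n = 8). The SDs and counts of libraries in this comparison come from the same genes read in each library. How far other sets of genes would depart from genes of like length was not tested. Not every role was high: without matching on length, the H3K4me3 share was 55% for hypoxia targets and 56.2% for transporters. Over all genes it was 59.9%. The Sox9 share was 43.8% for hypoxia targets and 68.8% for the 4 transporters, against 43.9% over all genes. The enzymes carried most of the H3K4me3 difference: 76.4% ± 12.5 of them had a peak, against 61.8% ± 13.4 of genes of like length, a difference of 14.6 ± 6.77 points, above 0 in 8 of 8. For the regulators it was 6.49 ± 15.6 points for Sox9 and 8.67 ± 17.2 for H3K4me3, above 0 in 6 of 8 libraries of each. The Sox9 difference of the enzymes was 4.37 ± 10.7 points, within its SD. At gene ends the H3K4me3 share of the enzymes was 24.3%, against 18.5% for genes of like length. That difference, 5.8 ± 10.8 points, was within its SD and above 0 in 4 of 8 libraries, so the excess of the enzymes is one of the body window. Most of the enzymes have another protein-coding gene within 10000 bp (3 for Pfkfb4, 2 for Gapdh), so peaks at that gene can fall in the window. Genes of like length were not matched on such neighbours, and the part of neighbours was not tested. A high H3K4me3 share in the body was not particular to the enzymes. Without matching on length it was 78.6% for markers of proximal tubule and 58.9% for those of injured tubule. Among related genes outside the list it was 73.3% for 29 other hypoxia genes. For 24 other genes of glycolysis and sugar handling it was 59.9%, the share over all genes. With peaks of 2 or more steps only, the members' Sox9 difference turned to -1.35 points, and with lists cut to 7706 peaks each by p it was -2.14.

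Between times, no gene passed an adjusted p of 0.05 for either antibody. The rate in the body was compared for each gene with a summit in at least 4 of the 8 libraries, by a two-sided exact permutation test of 4 against 4 libraries with Benjamini-Hochberg adjustment over all genes tested. With 70 arrangements the smallest p is 0.0286, reached where the rates of the times do not overlap. For Sox9, 10489 genes were tested, 25 members among them, and 324 genes (3.09%) reached that p. Higher at 10 days were 182 genes (1.74% of genes tested), and 146 of them had no summit at 48 h. Such a gene passes the filter through the 10-day libraries alone and then has to be apart, which holds for the 1 member of 25 that was higher, Arnt. Lower at 10 days was 1 member, Pfkl (1.35% of genes tested). For H3K4me3, 15533 genes were tested, 36 members among them, and 425 (2.74%) reached it. No member was higher at 10 days (1.69% of genes tested), and 1 of 36 was lower, P4ha2 (1.05%). Counts of 1 or none among 25 or 36 members are near what these shares of all genes give, so they say nothing about the list. The median difference of the members tested, 10 days minus 48 h, was -0.0945 for Sox9, where that of all genes tested was -0.039, and -0.0321 for H3K4me3, where that of all genes tested was -0.0124.

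**Figure D5:**
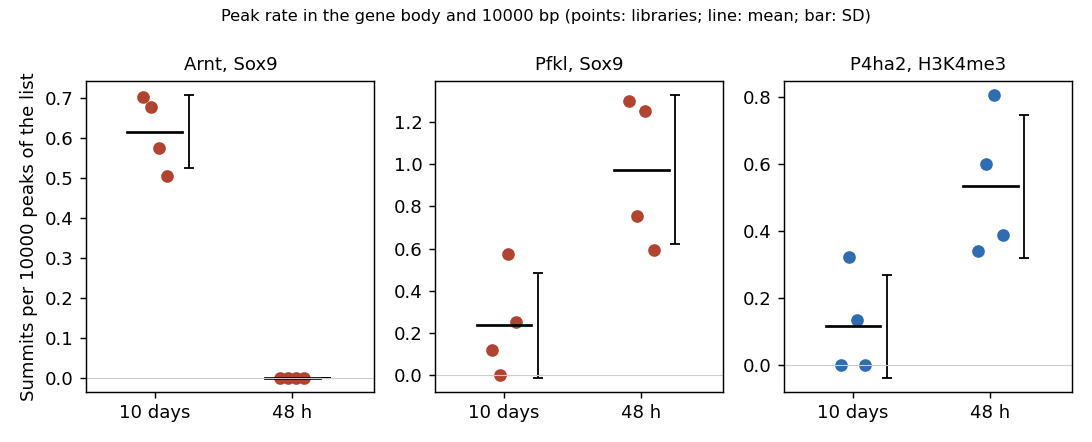
The peak rate in the gene body and 10000 bp on each side, in summits per 10000 peaks of the list, is plotted by library at 10 days and at 48 h for Arnt and Pfkl with Sox9 and for P4ha2 with H3K4me3, with the mean as a line and the SD as a bar. Arnt is above 0.5 in every 10-day library and at 0 at 48 h, and Pfkl and P4ha2 are lower at 10 days in every library.

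Arnt had a Sox9 rate of 0.702, 0.676, 0.575 and 0.504 at 10 days and 0 in all 4 libraries of 48 h (0.614 ± 0.092 at 10 days and 0 at 48 h, SD, n = 4 each). It was tested only because all 4 of its 10-day libraries held a summit, so its non-overlap was fixed by the filter and is given as a description. These rates stand for 6, 1, 1 and 2 summits. In replicates 1 and 3 a summit lay within 1000 bp of an end, in replicate 2 the only summit lay 6027 bp before the start site, and no Sox9 summit of Arnt was taller than 1 step. H3K4me3 at Arnt was 0.452, 0.646, 0.403 and 0.309 at 10 days and 0.339, 0.3, 0.269 and 0 at 48 h (exact permutation p = 0.0571, adjusted p = 1). Here the highest 48 h library was just above the lowest 10-day library. Without the flanks Arnt had Sox9 summits in too few libraries to be tested.

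Pfkl, for the liver type of phosphofructokinase that commits glucose to glycolysis, had a Sox9 rate of 0.117, 0, 0.575 and 0.252 at 10 days and 1.3, 0.754, 1.25 and 0.594 at 48 h (0.236 ± 0.248 at 10 days and 0.974 ± 0.354 at 48 h, SD, n = 4 each, exact permutation p = 0.0286, adjusted p = 0.925). Its summits were at different places in each library and only that of 48 h replicate 4, 209 bases after the start site, lay at an end. The rate rests on 1, 0, 1 and 1 summits at 10 days and 1, 2, 2 and 1 at 48 h, so a longer list lowers it where the count is equal. P4ha2 had an H3K4me3 rate of 0, 0.323, 0.134 and 0 at 10 days and 0.339, 0.601, 0.806 and 0.387 at 48 h (0.114 ± 0.153 at 10 days and 0.533 ± 0.215 at 48 h, SD, n = 4 each, exact permutation p = 0.0286, adjusted p = 1). No summit of H3K4me3 lay within 1000 bp of an end of P4ha2. With the gene body alone, without flanks, the difference was -0.226 for Pfkl (exact permutation p = 0.314) and -0.255 for P4ha2 (exact permutation p = 0.171), and neither was apart.

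Between antibodies, no member stood out after adjustment. Rates were compared by a two-sided exact permutation test of 8 against 8 libraries for 19054 genes, 39 members among them, and 0 genes passed an adjusted p of 0.05 (0% of genes tested, lowest adjusted p = 0.62). At an unadjusted p under 0.05, 841 genes were lower for Sox9 (4.41%), among them 1 member of 39, Aldoc, and 207 were higher (1.09%), among them no member. Aldoc, for the aldolase of brain, had no Sox9 summit in any of the 8 libraries. Its H3K4me3 rate was 0.226, 0, 0.134 and 0 at 10 days and 0.339, 0, 0.269 and 0.387 at 48 h (0 for Sox9 and 0.169 ± 0.159 for H3K4me3, SD, n = 8 each). It met the minimum number of libraries through H3K4me3 alone, with 5 libraries, so its call is no more than a description of that. Since the antibodies share pellets, sign flips over the 8 pellets were also run, and gave an unadjusted p under 0.05 for 661 genes and 0 members. Neighbours lie within 2000 bp of both ends of Aldoc, so its H3K4me3 peaks may belong to them.

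Related genes outside the list were read in the same way. Among 24 other genes of glycolysis and sugar handling, Sox9 marked an end in 11.5% of pairs and H3K4me3 in 18.8%, or in 7.61% for Sox9 and 15.2% for H3K4me3 without Pgk1. Pgk1, for phosphoglycerate kinase, had a peak of 2 or more steps at an end in 8 of 8 libraries of each antibody, which no member approached. Over all genes, only 3 had a Sox9 peak of any height at an end in 8 libraries, and 11 an H3K4me3 peak. Whether reads shared with copies elsewhere add to the Pgk1 peaks was not tested. Mpc2, for a subunit of the mitochondrial pyruvate carrier, had 1 Sox9 and 4 H3K4me3 libraries, and Pdk2, for a pyruvate dehydrogenase kinase, had 1 Sox9 and 5 H3K4me3 libraries. For 8 genes of gluconeogenesis the shares were 6.25% for Sox9 and 14.1% for H3K4me3. Among 29 other hypoxia genes Sox9 marked an end in 9.91% of pairs and H3K4me3 in 24.6%. Cited2, whose product competes with HIF for a coactivator, had 2 Sox9 and 5 H3K4me3 libraries, all 4 of 10 days among the 5. H3K4me3 marked an end of Siah2 and of Kdm4b in 4 libraries each, with Sox9 at Kdm4b in 1 and at Siah2 in none. Flt1, for a receptor of the Vegfa protein, had 4 Sox9 libraries and 1 H3K4me3 library. The differences between these lists and the 40 members were not tested.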

How the data were processed

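CUT&RUN peaks of Sox9 and H3K4me3 were available for 16 libraries of sorted mouse kidney cells, each called against the input of its pellet, per the file headers and peak names. The 8 inputs were left out. The genome build was mm10, and MACS3, Bowtie, Bowtie2 and Partek 10 are named, per the submitters' processing notes. The threshold for peaks, read filters, duplicate handling and scaling are not given in the sources used here, and read depth is unknown.

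The deposited lists give a score, which is a whole-number display value and was not used, and a fold, the authors' ratio of pileup to background at the summit. The deposited p-value and q-value are −log10 values by the authors' caller. The deposited summit offset, added to the peak start, gave the summit. Peak height was solved from fold and p within a list, with a tolerance of 0.05% of the −log10 p.

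Gene bounds and start sites are those of RefSeq on GRCm38.p6, and 37 of 40 members had a promoter in the table of sequences (Epas1, Slc2a3 and Bnip3l are named only). Rates are summits in the gene and 10000 bp on each side per 10000 peaks of the list. Tests were two-sided exact permutations over libraries, and shares over the members carry no test. The members and lists were chosen with earlier results of these data known. Members described by library had a peak at an end in at least 3 of 8 libraries of an antibody, rates of the times that do not overlap, or a central role (Hif1a, Epas1, Vhl, Vegfa, Slc2a1, Hk2, Ldha, Gapdh). Genes of other lists are named with a peak at an end in at least 4 of 8 libraries. Other genes and peaks named, such as those with 2 or more steps or recurrent regions, were chosen after their values were seen.

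The Sox9 and H3K4me3 libraries of a pellet are paired on the labels' protocols, while replicate numbers of the times come from different animals. Deviations of the rates in the 2 libraries of a pellet had correlations of -0.0019 to 0.0417 in the 10-day pellets and of -0.0053 to 0.0159 in those of 48 h. Alternatives were a −log10 q of at least 5, 2 or more steps, equal list lengths, overlap in place of summits, other windows, no filter, blocks, a 25% length tolerance and leaving out replicates. Counting start sites in place of gene ends was added after the data were seen. The code was tested on simulated data. SciPy 1.17.1, pandas 2.3.3, Matplotlib 3.10.9 and NumPy 2.4.6 ran under Python 3.11.15.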

Additional observations from a re-analysis of the deposited data

Results flagged for a closer look

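Of 48 groups of 4 libraries examined, 3 held a library far from the other 3 of its group. In each of these groups the other 3 libraries had the same value, so their spread was 0. A chance rate of about 1 group in 20 does not hold for such tied counts, so the flags carry little weight. In the Sox9 libraries of 10 days, replicate 1 had a peak of 2 or more steps at an end of 2.5% of the members, which is Slc16a1, and the other 3 libraries had none. In the H3K4me3 libraries of 48 h, replicate 2 had a summit within 1000 bp of a start site for 4 of the 37 members (10.8%). Each of the other 3 libraries had 7. For Sox9 at P4ha2, 48 h replicate 3 had a body rate of 1.25 summits per 10000 peaks, from 2 summits, and the other 3 libraries of 48 h had 0. The cause was not tested for any of these.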

How the results depend on the processing

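Of the recomputed values that answer a comparison, 213 stayed within their limits and 60 moved. The alternatives that filtered on q, used overlap, dropped the filter on low values, took the start end of genes or annotated start sites, or widened the length tolerance moved none of these. With peaks of 2 or more steps the members' share at ends was 0.312% for Sox9 and 5.62% for H3K4me3, and with lists of equal length it was 1.56% for Sox9 and 5.31% for H3K4me3. The Sox9 difference from genes of like length changed sign under both, to -1.35 points with 2 or more steps and -2.14 points with equal lists. Genes apart between times were 2 for Sox9 and 6 for H3K4me3 with 2 or more steps, and 21 for Sox9 and 37 for H3K4me3 with equal lists. Genes at an unadjusted p under 0.05 between antibodies were 34 with 2 or more steps and 68 with equal lists, and no member (0) was called under either. Few peaks are left under these settings, so few genes could be tested.

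With ends widened to 3000 bp and the body taken without flanks, the Sox9 share at ends was 24.4%. Genes apart between times were then 174 for Sox9 and 279 for H3K4me3 with 0 members in either, and 669 genes, 2 members among them, had an unadjusted p under 0.05 between antibodies. The calls of Pfkl and P4ha2 were lost there, and Arnt could not be tested.

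With the replicate number as a block, 832 of 10489 genes tested were apart for Sox9, among them 2 of 25 members. For H3K4me3, 1459 of 15533 were apart, among them 5 of 36 members. All were at the smallest sign-flip p of 0.125 that 4 pairs allow, and nothing about the list is read from these counts. Same-numbered libraries of the times had correlations of -0.0123 to 0.0142 for Sox9 and -0.0053 to 0.0253 for H3K4me3, and 2 of 4 matched best with their own number for each. With the pellet as a block, 661 genes and 0 members had an unadjusted p under 0.05 between antibodies.

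Leaving out 1 library gave 269 to 759 genes apart for Sox9 (1 to 4 members), 587 to 953 for H3K4me3 (1 to 5 members), and 1006 to 1189 genes (1 to 4 members) at an unadjusted p under 0.05 between antibodies; with fewer libraries, fewer have to be in order for the times to be apart. Groups that are apart stay so when a library is removed, so this says nothing about the calls of Pfkl and P4ha2, and without a library of 10 days Arnt had a summit in too few to be tested. The members' share at ends was 12.5% to 15.7% for Sox9 and 20.4% to 28.2% for H3K4me3, and enzymes minus regulators ran from -11.3 to 0.595 points for Sox9 and from -1.39 to 6.55 for H3K4me3.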
